A study of Rattus norvegicus with 20 samples.

Results

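Bulk RNA-seq libraries of rat mesenchymal stromal cells (MSCs) that had been cultured for 3 weeks on a soft 2 kPa surface (3w2) were compared with libraries of MSCs cultured for 3 weeks on a stiff 100 kPa surface (3w100). These were 3 libraries of 3w2 and 3 of 3w100, 6 of the 20 libraries of the series, chosen by the surface and the passage in their labels. MSCs of both groups came from the bone marrow of female Wistar rats, were put straight onto gelatin-coated silicone and were passaged once per week. The labels name no gene deletion and no drug for any of the groups used here. Cells were selected on CD54 and CD90 with beads and grown in medium with fetal bovine serum, so each library is a mixed population of a culture and not a clone. The other 14 libraries were 3 each of cells kept for 1 week on either surface (1w2, 1w100), 2 each of cells kept for 5 weeks (5w2, 5w100), and 2 each of cells moved after 3 weeks to the other surface for a further 2 weeks (3w2→2w100, 3w100→2w2). Their levels are set beside those at 3 weeks below. They also entered the filter, the scaling and the estimate of the spread in the fit over all 20 libraries, so a choice of genes on the 6 libraries alone is given as well. According to the methods of the study, replicates are cells of different rats. Whether a replicate number marks the same rat in 3w2 and 3w100, and whether the 5-week cultures grew out of those sampled at 3 weeks, is not given in the sources used here.

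MSCs are fibroblast-like cells of the bone marrow stroma that can give rise to bone, fat and cartilage cells and that secrete factors used in tissue repair. They pull on the surface they attach to through actin fibres and focal adhesions, and they sense its stiffness by the resistance they meet. On stiff surfaces MSCs can become myofibroblasts, contractile cells with stress fibres of alpha-smooth muscle actin that deposit the collagen of scars. The comparison at 3 weeks asks which transcripts differ at the time when the cells were primed, which is the starting point of both surface switches.

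The counts are given per Ensembl gene identifier, and no table used here pairs these identifiers with gene symbols. Contractile, matrix, lineage and surface marker genes could therefore not be looked up by name, and the labelled cell type was not checked against its markers. Genes are described below as sets, by their counts, sizes and levels, and the identifiers of 2 genes in each direction are given with their value in every library. In bulk libraries, a lower level from fewer cells of a type and from less RNA per cell cannot be told apart.

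Before the comparison of genes, the 6 libraries were compared with each other. Counts on genes were 16127907 to 21720761 per library in 3w2 and 17851670 to 24139128 in 3w100, so the ranges of depth overlapped. Between 15749 and 16643 genes had at least 1 count, and the 10 genes with the most counts took 15.06% to 16.37% of a library. The distance between 2 libraries was taken over all 14034 tested genes on the scale log2(CPM + 1), where CPM is the count per 1000000 counts on tested genes after TMM scaling. It averaged 48.6 within 3w2 (3 pairs, 45.6 to 53.4), 42.4 within 3w100 (3 pairs, 33.8 to 49.3) and 49.3 between the surfaces (9 pairs, 29.4 to 64.2). The distances between the surfaces thus spanned the whole range of those within a surface.

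**Figure D1:**
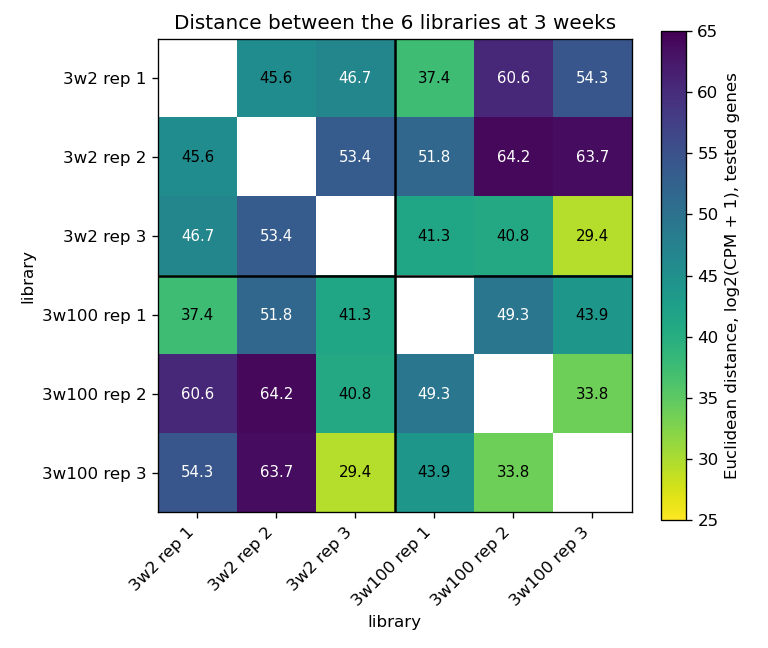
Euclidean distance between each pair of the 6 libraries at 3 weeks, over the log2(CPM + 1) values of 14034 tested genes, with 1 square per pair and black lines between the 3w2 and 3w100 libraries. The smallest distance, 29.4, lies between 3w2 replicate 3 and 3w100 replicate 3, and the largest, 64.2, between 3w2 replicate 2 and 3w100 replicate 2.

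Libraries of replicate 3 on soft and replicate 1 on stiff stood near those of the other surface. The library of 3w2 replicate 3 was 41.3, 40.8 and 29.4 from the 3w100 libraries of replicates 1, 2 and 3, and 46.7 and 53.4 from the other 3w2 libraries. The library of 3w100 replicate 1 was 37.4, 51.8 and 41.3 from the 3w2 libraries of replicates 1, 2 and 3, and 49.3 and 43.9 from the other 3w100 libraries, so that its distances to the surfaces overlapped. Of the 6 libraries, 4 had a library of the other surface as their nearest neighbour, each time the one of the same replicate number. These were the libraries of replicate 1, at 37.4 from each other, and of replicate 3, at 29.4. Whether a shared origin of same-numbered libraries contributed to this was not tested. No 2 of the 6 were duplicates, since the chi-square of their counts was at least 14.3 per degree of freedom in every pair. The main counts and shares below are also given without each of these 2 libraries.

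At 3 libraries per surface, 0 of 14034 tested genes (0%) were called by the quasi-likelihood test of edgeR at a Benjamini-Hochberg adjusted p below 0.05, and the lowest adjusted p was 0.431. The test used 1 model over all 20 libraries, in which all 8 groups share the estimate of the spread between replicates. At an unadjusted p below 0.05, 459 genes (3.27%) were higher in 3w2 and 404 (2.88%) in 3w100. DESeq2 fitted to all 20 libraries called 11 genes, and fitted to the 6 libraries alone it called 68, so the number of calls depended on the tool and on the libraries in the fit. All p-values here measure the spread between these libraries only.

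The size of the difference was limited for most genes. Log2 fold changes, 3w2 minus 3w100, had a median of -0.01 and an SD of 0.50 across genes, with 5th and 95th percentiles of -0.76 and 0.61. The standard error of a gene's log2 fold change had a median of 0.18, and the 95% confidence interval reached a median of 0.39 to either side. For 9953 genes (70.9%) the whole interval lay within a 2-fold difference in either direction. For these genes a difference of more than 2-fold between the surfaces is thus outside the interval, whereas the edgeR fit called no smaller difference at an adjusted p below 0.05. Of the 727 genes with a fitted difference of more than 2-fold, 317 were on the side of 3w2 and 410 on that of 3w100, and 151 of them also had libraries that did not overlap and an unadjusted p below 0.05.

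To describe the genes that differed most regularly, genes were taken as apart when every library of one surface had a higher CPM than every library of the other and the unadjusted edgeR p was below 0.05. Libraries did not overlap in 943 genes that were higher in 3w2 (6.72% of tested genes) and in 1092 that were higher in 3w100 (7.78%). With 3 libraries per surface some genes show no overlap by chance, and how far these shares exceed a share by chance was not tested. With the condition on p, 280 genes (2.00%) were apart and higher in 3w2, and 302 (2.15%) were apart and higher in 3w100. None of these 582 genes passed the adjusted test with edgeR, so the sets describe these 6 libraries, and their sizes and p-values at 3 weeks were what chose them.

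Most genes that were apart differed by less than 2-fold. The 280 genes higher in 3w2 had a median absolute log2 fold change of 0.42 (quartiles 0.28 and 0.98), and the 302 higher in 3w100 one of 0.48 (quartiles 0.27 and 1.07), against 0.14 over all tested genes. More than 2-fold differences were found in 68 of the former and 83 of the latter, and more than 4-fold in 29 and 21. Their median levels were 4.45 and 4.4 on the log2 CPM scale, close to the 4.18 of all tested genes. The share of genes that were apart varied little with the level, from 1.51% to 2.52% for those higher in 3w2 and from 1.82% to 2.83% for those higher in 3w100 over 6 bins of level. Fold changes above 2 were concentrated at low levels, where 29 of the 31 genes apart and higher in 3w2, and 41 of the 47 higher in 3w100, passed 2-fold in the bin below 1 CPM. In the bin of the highest levels, above 8 on the log2 CPM scale, 10 and 13 genes were apart and 0 passed 2-fold in either direction. The median standard error was 0.65 in the lowest bin and 0.15 in the highest. The condition on p thus required larger fold changes at low levels, and this pattern follows in part from how the genes were chosen. No gene had 0 counts in all libraries of one surface and at least 10 counts in every library of the other.

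**Figure D2:**
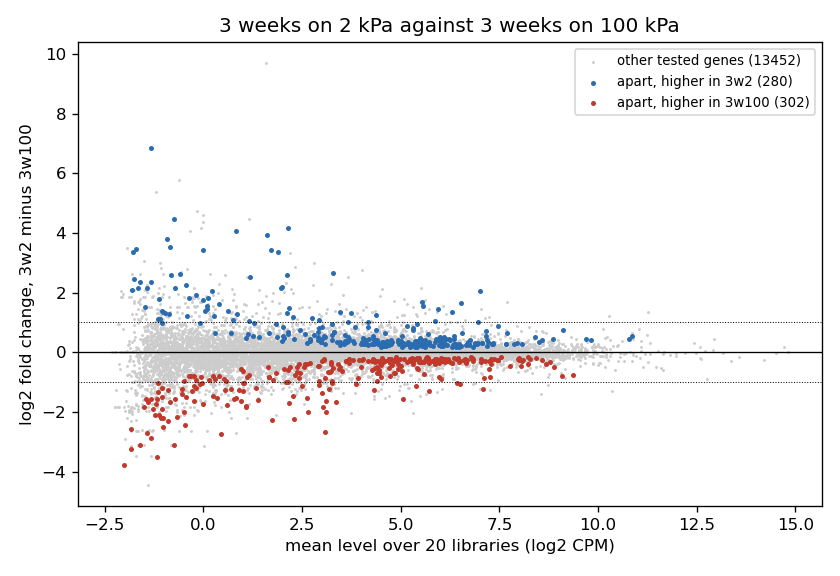
Log2 fold change of 3w2 minus 3w100 against the mean level over all 20 libraries in log2 CPM, with 1 point per tested gene and dotted lines at a 2-fold difference. The 280 genes apart and higher in 3w2 (blue) and the 302 higher in 3w100 (red) reach furthest from 0 at low levels and lie within 2-fold at the highest levels. Standard errors were larger at low levels, so a larger fold change was needed there to pass the condition on p.

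The same libraries were often those at the boundary between the groups. Among the 280 genes higher in 3w2, replicate 3 was the 3w2 library nearest to the stiff libraries in 201 (71.8%), and replicate 1 was the 3w100 library nearest to the soft libraries in 165 (58.9%). Among the 302 genes higher in 3w100 these were 182 (60.3%) and 145 (48%). Without 3w2 replicate 3, 1368 genes were apart and edgeR called 3 genes at an adjusted p below 0.05, of which 1 was higher in 3w2 and 2 in 3w100. None of the 3 is among the identifiers given below. Without 3w100 replicate 1, 1158 genes were apart and 0 were called. Fewer libraries make an absence of overlap easier to reach, but leaving out 3w2 replicate 2 or 3w100 replicate 2 lowered the number to 327 and 360. The number of genes apart therefore depended on which library was left out.

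DESeq2 on the 6 libraries, which estimates the spread from these 6 alone, gave an adjusted p to 11893 genes and found 27 (0.227%) towards 3w2 and 41 (0.345%) towards 3w100. Without 3w2 replicate 3 it called 483 genes, and without 3w100 replicate 1 it called 251. The absolute log2 fold changes of its 68 calls were 0.29 to 4.09 with a median of 1.08. All 11 calls of DESeq2 on 20 libraries, 9 (0.0654%) towards 3w2 and 2 (0.0145%) towards 3w100, were among the 68. In edgeR, 51 of the 68 had an unadjusted p below 0.05 and 50 were apart, and their adjusted p in edgeR was 0.431 to 0.913.

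The 12 genes of largest difference in each direction were taken among genes that were apart and had a mean of at least 1 CPM in the higher group. The 12 genes higher in 3w2 had log2 fold changes of 2.18 to 4.15, and the 12 higher in 3w100 had -2.74 to -1.74, so the differences reached further on the side of the soft surface. All were of low or moderate level. Those higher in 3w2 had group means of 1.12 to 17.7 CPM in 3w2 (median 5.53) and 0.152 to 2.86 CPM in 3w100 (median 0.60). Those higher in 3w100 had 0.216 to 5.32 CPM in 3w2 (median 1.13) and 1.13 to 21.1 CPM in 3w100 (median 6.20).

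Of these 24 genes, ENSRNOG00000013907 had the largest difference, with 6.65, 15.7 and 7.24 CPM in the 3w2 libraries and 1.51, 0 and 0 CPM in the 3w100 libraries. All 3w2 libraries were above all 3w100 libraries, and 1 stiff library, replicate 1, held all 36 counts of its group. The log2 fold change was 4.15 ± 1.10 (SE) with a 95% interval of 1.81 to 6.50, and the adjusted p with edgeR was 0.777. Without 3w100 replicate 1, both remaining stiff libraries are at 0 counts and no fold is given. Without 3w2 replicate 3 the log2 fold change was 4.34. At 1 week its levels were 0.487, 4.0 and 0.64 CPM in 1w2 and 0.365, 0 and 0.2 CPM in 1w100, so that the soft libraries were all higher, by less. After 5 weeks it had 11.2 and 13.5 CPM in 5w2 and 0.286 and 0.109 CPM in 5w100. In the switched cultures it had 9.34 and 14.5 CPM in 3w2→2w100 and 0.379 and 0 CPM in 3w100→2w2. At 3 weeks and later, the 7 libraries of cells primed on soft held 6.65 CPM or more and the 7 of cells primed on stiff 1.51 CPM or less. The log2 fold change at 5 weeks was 5.92 ± 1.55 (SE), with an adjusted p of 0.0891 in edgeR.

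ENSRNOG00000017640 had 2.08, 4.42 and 4.37 CPM in 3w2 and 0, 0.462 and 0.212 CPM in 3w100, which is 45 to 93 counts against 0 to 8. Again the libraries did not overlap. The log2 fold change was 4.06 ± 1.12 (SE), with an interval of 1.67 to 6.46. It was 3.90 without 3w2 replicate 3 and 3.41 without 3w100 replicate 1, and with all libraries the adjusted p was 0.777 with edgeR and 9.74e-05 with DESeq2 on the 6 libraries. The order was the opposite after 5 weeks, with 0.173 and 0.0958 CPM in 5w2 and 2.12 and 0.602 CPM in 5w100. The difference between the surfaces changed from 3 to 5 weeks by -7.33 ± 1.83 (SE) on the log2 scale, with an adjusted p of 1 in edgeR. At 1 week the levels overlapped, with 1.61, 3.03 and 1.98 CPM in 1w2 and 0.0456, 1.71 and 1.10 CPM in 1w100. The switched cultures overlapped as well, at 5.78 and 0.847 CPM in 3w2→2w100 and 0.487 and 2.96 CPM in 3w100→2w2.

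On the side of the stiff surface, ENSRNOG00000067388 had even levels within each group. It had 2.17, 1.09 and 1.46 CPM in 3w2 and 10.1, 11 and 9.38 CPM in 3w100, with group means of 1.57 ± 0.551 and 10.2 ± 0.796 CPM (SD, n = 3 each). The libraries of the surfaces were thus far apart relative to the spread within either group. The log2 fold change was -2.67 ± 0.55 (SE), with an interval of -3.84 to -1.50. The adjusted p was 0.472 with edgeR, 2.24e-16 with DESeq2 on the 6 libraries and 0.00138 with DESeq2 on all 20. Neither 3w2 replicate 3 nor 3w100 replicate 1 decided the value, which was -2.61 and -2.67 without them. The libraries of other times did not follow the surface. At 1 week there were 7.11, 7.60 and 1.51 CPM in 1w2 and 7.89, 1.66 and 7.66 CPM in 1w100, with 1 low library on either surface. After 5 weeks there were 12.9 and 12.5 CPM in 5w2 and 11 and 11.3 CPM in 5w100, and the 4 switched libraries had 10.9 to 14.3 CPM. Over the 20 libraries its level was either 2.17 CPM or less, in 5 libraries, or 7.11 CPM or more, in 15. The difference between the surfaces changed by -2.59 ± 0.74 (SE) from 1 to 3 weeks and by 2.85 ± 0.81 (SE) from 3 to 5 weeks, each with an adjusted p of 1 in edgeR.

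Among the 12 genes of at least 1 CPM towards the stiff surface, ENSRNOG00000047393 had the largest fitted difference but few counts. It had 0.0924, 0.320 and 0.235 CPM in 3w2 and 0.377, 3.58 and 0.424 CPM in 3w100, from 2 to 5 counts and 8 to 62 counts per library. The log2 fold change was -2.74 ± 1.25 (SE), with an interval of -5.41 to -0.07 and an adjusted p of 0.806 in edgeR. One library carried it, since the log2 fold change was -0.91 without 3w100 replicate 2, against -2.84 without 3w2 replicate 3 and -3.21 without 3w100 replicate 1. Replicate 2 was also the higher of the stiff libraries at 5 weeks, with 0.515 and 8.97 CPM in replicates 1 and 2 of 5w100 and 0.129 and 0 CPM in 5w2. In the switched cultures there were 0.812 and 9.5 CPM in replicates 1 and 2 of 3w100→2w2 and 0 counts in both libraries of 3w2→2w100, where a count of 0 allows up to 3 counts. At 1 week all 6 libraries had 0.0456 to 0.175 CPM.

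**Figure D3:**
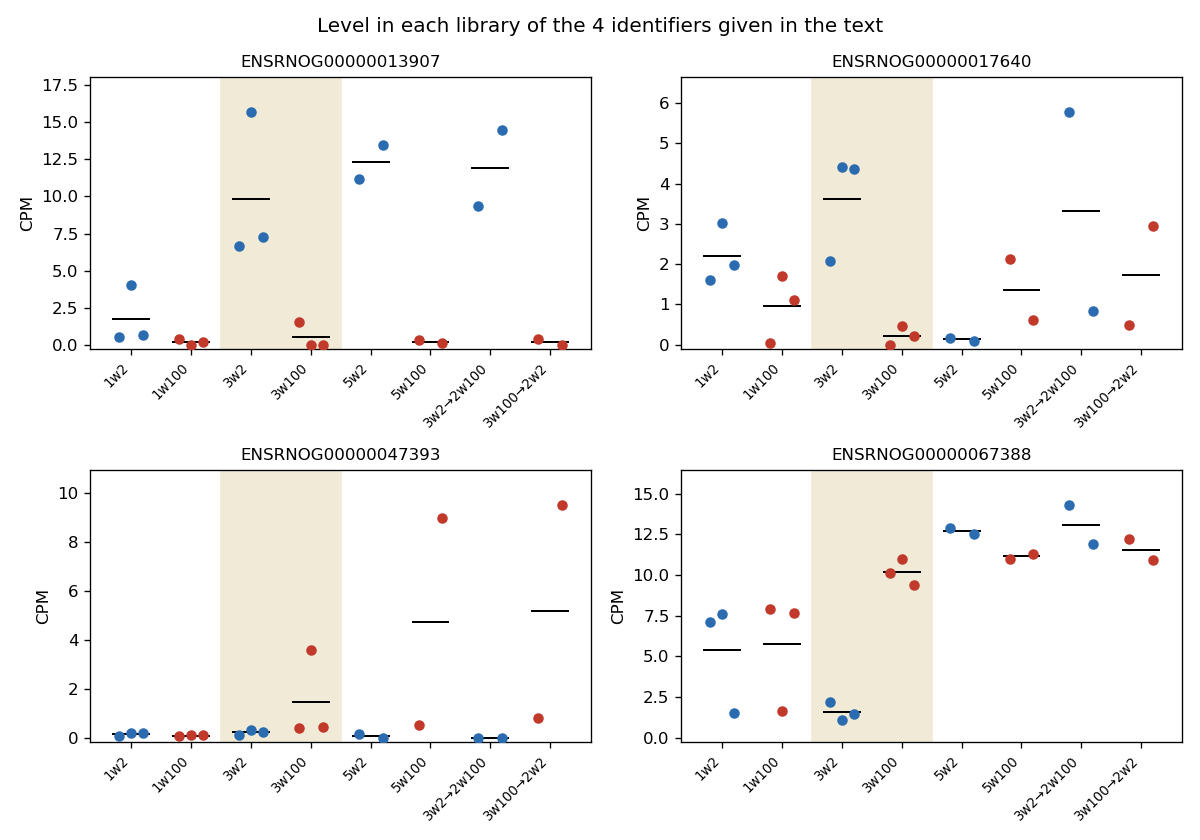
CPM of the 4 identifiers in each of the 20 libraries, with points for libraries, black lines for group means, blue for cells first put on 2 kPa, red for cells first put on 100 kPa, and shading over the 3-week groups. ENSRNOG00000013907 is at 6.65 CPM or more in every library of cells primed on soft for 3 weeks or longer, whereas ENSRNOG00000067388 separates the surfaces at 3 weeks and not at 1 or 5 weeks.

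Whether the differences at 3 weeks were there after 1 week was examined in the 6 libraries of 1w2 and 1w100. They were small. Of the 280 genes higher in 3w2, 166 (59.3%) were on average higher in 1w2, with a median log2 fold change of 0.02. Of the 302 genes higher in 3w100, 185 (61.3%) were higher in 1w100, with a median of -0.03. Over all 14034 tested genes the sign at 1 week was that at 3 weeks in 56.6%. An unadjusted p below 0.05 in the same direction at 1 week was reached by 6 of the 280 genes (2.14%) and 0 of the 302. Among all tested genes these were 32 (0.228%) and 22 (0.157%), so the share was above that of all genes for the soft set only. For both sets together the sign was the same in 60.3%, and in 67.4% of the genes apart without 3w2 replicate 3 and 68.6% of those apart without 3w100 replicate 1.

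The change of the difference from 1 to 3 weeks was tested directly as an interaction over all genes. edgeR called 0 genes, with 123 (0.876%) at an unadjusted p below 0.05 in which the difference was further towards soft at 3 weeks and 99 (0.705%) further towards stiff. DESeq2 called 0 genes as well, on all 20 libraries and on the 12 libraries of 1 and 3 weeks. For single genes, a difference that grew between 1 and 3 weeks was thus not detectable at an adjusted p below 0.05.

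After 5 weeks the genes apart at 3 weeks mostly differed in the same direction. Of the 280 genes higher in 3w2, 264 (94.3%) were higher in 5w2 than in 5w100, with a median log2 fold change of 0.40 (quartiles 0.23 and 0.80). Of the 302 genes higher in 3w100, 279 (92.4%) were higher in 5w100, with a median of -0.50 (quartiles -1.24 and -0.23). Over all tested genes 72.1% had the same sign at both times, and among genes with an unadjusted p above 0.5 at 3 weeks 60.5% did. An unadjusted p below 0.05 in the same direction at 5 weeks was reached by 142 of the 280 genes (50.7%) and by 172 of the 302 (57%). Among all tested genes these shares were 840 (5.99%) for higher in 5w2 and 1327 (9.46%) for higher in 5w100. In the opposite direction it was reached by 2 and 1 genes. edgeR called 4 and 15 of the genes at 5 weeks at an adjusted p below 0.05, of 6 (0.0428%) and 31 (0.221%) called among all tested genes. The 5-week comparison rests on 2 libraries per group. For both sets together the share was 93.3%, and without 1 library of 3 or 5 weeks at a time 87.8% to 94.4% of the genes then apart kept their sign.

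The share of genes with the same sign at 5 weeks was higher among genes with a lower p at 3 weeks. It was 77.9% of 4298 genes with an unadjusted p from 0.2 to 0.5 at 3 weeks, 85.9% of 2344 from 0.05 to 0.2, 93.1% of 696 from 0.01 to 0.05 and 96.1% of 155 from 0.001 to 0.01. Among the 12 genes below 0.001 it was 11. The 68 calls of DESeq2 on the 6 libraries behaved alike, with 64 of the same sign at 5 weeks and 48 of these at an unadjusted edgeR p below 0.05, whereas 43 had the same sign at 1 week and 0 of them passed.

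The change of the difference from 3 to 5 weeks was again tested as an interaction. edgeR called 0 genes, with 127 (0.905%) at an unadjusted p below 0.05 towards soft and 277 (1.97%) towards stiff. DESeq2 called 0 genes on all 20 libraries and 2 on the 10 libraries of 3 and 5 weeks. Of the 280 genes higher in 3w2, the difference grew further towards soft with an unadjusted p below 0.05 in 1 and shrank in 10. Of the 302 genes higher in 3w100, it grew towards stiff in 22 and shrank in 10. These counts use the 3-week libraries that chose the genes and are a description only.

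In the switched cultures, which share no library with the 3-week groups, most of these genes had the order of the surface of the first 3 weeks. The first surface and the surface at harvest are opposite here, so the sign shows only which order outweighed the other. An effect of the surface at harvest was not tested, since the switched cultures were not tested against 5w2 or 5w100. The comparison between the switched cultures rests on 2 libraries per group, of cells that had been primed for 3 weeks before the switch. Whether lasting differences between cultures or rats contributed to the order was not tested. Between 3w2→2w100 and 3w100→2w2, 231 of the 280 genes higher in 3w2 (82.5%) were higher in the cells first grown on soft, with a median log2 fold change of 0.29. Of the 302 genes higher in 3w100, 267 (88.4%) were higher in the cells first grown on stiff, with a median of -0.43. The same sign was found in 67% of all tested genes. An unadjusted p below 0.05 in the same direction was reached by 92 (32.9%) and 139 (46%) of the genes, against 739 (5.27%) and 1290 (9.19%) of all tested genes, and in the opposite direction by 1 in each set. edgeR called 0 and 4 of them at an adjusted p below 0.05, of 1 (0.00713%) and 7 (0.0499%) among all tested genes. For both sets together the same sign was found in 85.6%, and in 92% of the genes apart without 3w2 replicate 3 and 83.8% of those apart without 3w100 replicate 1.

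Since the other 14 libraries had entered the fit that gave the p at 3 weeks, the choice was repeated in an edgeR fit of the 6 libraries alone, and the genes were followed in a fit of the other 14 libraries alone. This chose 913 genes, 446 towards 3w2 and 467 towards 3w100, of which 912 were measured in the other fit. The sign was the same in 543 (59.5%) at 1 week, in 867 (95.1%) at 5 weeks and in 771 (84.5%) in the switched cultures. Over the 12899 genes in both fits these shares were 56.3%, 73.2% and 68%.

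**Figure D4:**
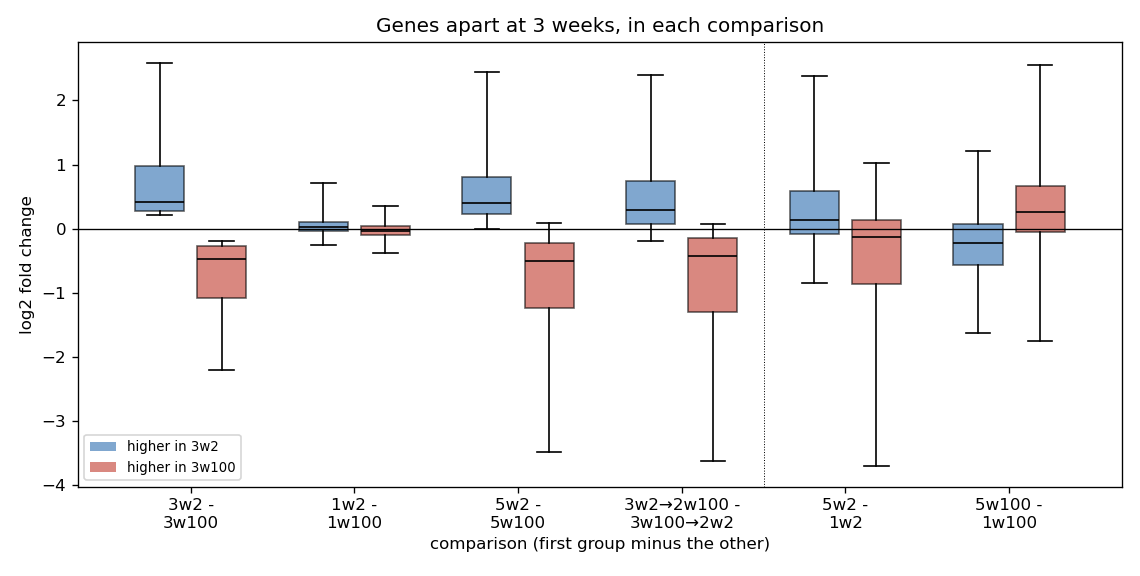
Log2 fold changes of the 280 genes apart and higher in 3w2 (blue) and the 302 higher in 3w100 (red) in 6 comparisons, each of the first group minus the other, with boxes from the lower to the upper quartile, a line at the median and whiskers to the 5th and 95th percentiles. The values of 3w2 minus 3w100 chose the genes, and the boxes of both sets lie near 0 at 1 week and on either side of 0 at 5 weeks and in the switched cultures.

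The levels of both sets were also followed in each library, as the median over the genes of log2(CPM + 1) minus the mean of the 6 libraries at 3 weeks. For the 280 genes higher in 3w2 this was 0.21, 0.25 and 0.07 in 3w2 and -0.10, -0.26 and -0.19 in 3w100 for replicates 1, 2 and 3, which is how they were chosen. It was 0.08, 0.13 and -0.10 in 1w2 and 0.03, 0.01 and 0.00 in 1w100, and the libraries of 1 week overlapped. It was 0.25 and 0.16 in 5w2 and -0.12 and -0.24 in 5w100. In the switched cultures it was 0.09 and 0.18 in 3w2→2w100 and -0.08 and -0.14 in 3w100→2w2. All 4 libraries at 5 weeks of cells first grown on soft were thus above all 4 of cells first grown on stiff.

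The 302 genes higher in 3w100 showed the mirror image. The median was -0.17, -0.25 and -0.10 in 3w2 and 0.13, 0.24 and 0.16 in 3w100, again by choice. It was -0.13, -0.12 and 0.00 in 1w2 and -0.10, -0.08 and -0.03 in 1w100, and these overlapped. It was -0.22 and -0.16 in 5w2 and 0.10 and 0.26 in 5w100, and -0.18 and -0.19 in 3w2→2w100 and 0.06 and 0.19 in 3w100→2w2. Replicate 2 was further from 0 than replicate 1 in 5w100 and in 3w100→2w2 for both sets. The 1w2 library of replicate 3 had the lowest median of its group for the first set and the highest for the other, like the 3w2 library of that number.

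**Figure D5:**
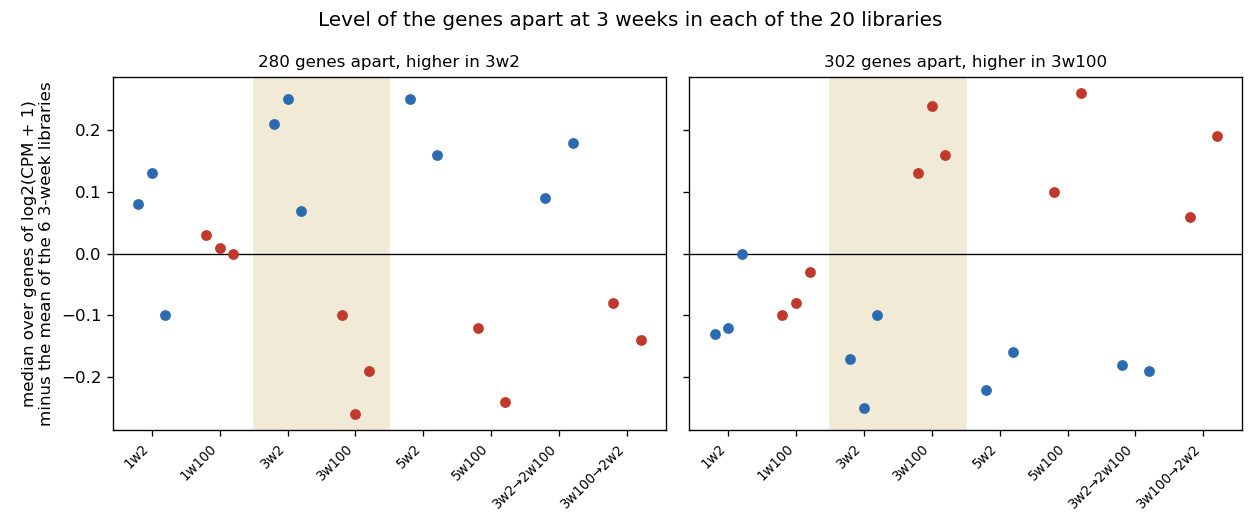
Median over genes of log2(CPM + 1) minus the mean of the 6 libraries at 3 weeks, for the 280 genes apart and higher in 3w2 (left) and the 302 higher in 3w100 (right), with 1 point per library, blue for cells first put on 2 kPa, red for cells first put on 100 kPa, and shading over the 3-week libraries. The libraries overlap at 1 week, and at 5 weeks and in the switched cultures blue and red points lie on opposite sides of 0.

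The 582 genes apart at 3 weeks were also compared between 1 and 5 weeks on each surface. From 1w2 to 5w2 the 280 genes higher in 3w2 had a median log2 fold change of 0.13, and edgeR called 50 of them higher and 9 lower at 5 weeks. From 1w100 to 5w100 their median was -0.22, with 13 called higher and 62 lower. The 302 genes higher in 3w100 had a median of -0.13 on the soft surface, with 19 called higher and 65 lower, and of 0.26 on the stiff surface, with 92 called higher and 20 lower. Among all tested genes, edgeR called 977 (6.96%) higher and 1175 (8.37%) lower on soft, and 1246 (8.88%) higher and 1171 (8.34%) lower on stiff. Calls on the stiff surface were thus 62 of 280 and 92 of 302 in the direction seen at 3 weeks, and on the soft surface 50 of 280 and 65 of 302.

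The levels of the 12 genes of largest difference in each direction were followed as well. Those higher in 3w2 had a median log2 fold change of 1.2 at 1 week, against 0.02 for all 280 genes. These 12 were picked for large fold changes at 3 weeks, and their standard errors at 1 week were 0.52 to 1.26. Of the 12, 11 had the same sign as at 3 weeks, and 2 of these had an unadjusted edgeR p below 0.05. For those higher in 3w100 the median at 1 week was -0.22, with 8 of the same sign and 0 below this p. Over all tested genes 56.6% had the same sign at 1 week. Below this p, 0.228% were higher in 1w2 and 0.157% in 1w100. Those higher in 3w2 had a median group mean of 1.73 CPM in 1w2 and 0.537 CPM in 1w100 before, and of 5.79 CPM in 5w2 and 0.696 CPM in 5w100 after. Those higher in 3w100 had 0.692 CPM in 1w2 and 0.76 CPM in 1w100, and 0.248 CPM in 5w2 and 2.96 CPM in 5w100. In each direction 11 of the 12 genes had the same sign at 5 weeks, against 72.1% of all tested genes. The exceptions were ENSRNOG00000017640 and ENSRNOG00000067388. In the switched cultures the medians were 6.13 CPM in 3w2→2w100 and 0.661 CPM in 3w100→2w2 for those higher in 3w2. They were 0.399 CPM in 3w2→2w100 and 3.15 CPM in 3w100→2w2 for those higher in 3w100.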

How the data were processed

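The 20 libraries hold polyA RNA of rat MSCs and were grouped by the labels for surface and passage, with the paper's group names. The deposited values are whole counts of reads on each Ensembl gene, which the authors had not normalized. Per the labels and the paper's methods, they prepared stranded libraries, trimmed reads with Trim Galore, checked them with FastQC, mapped them with HISAT2 to rn7 (mRatBN7.2), counted them with featureCounts and tested with DESeq2. Versions, and how strand and reads shared by genes were treated, were not given in the sources used here. Counts of overlapping or near-identical genes are therefore uncertain. The table has 30560 genes and 0 rows without a gene. Limits set by a count of 0 cover counting error alone.

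Low counts were removed with filterByExpr of edgeR 4.0.16 under R 4.3.3 (minimum count 10, total 15). The 14034 remaining genes were scaled with TMM and tested by quasi-likelihood, with all 20 libraries and 8 groups fitted together, no term for the replicate, and Benjamini-Hochberg adjustment over these genes. Confidence intervals used the test's 14.8 degrees of freedom (median over genes). CPM were scaled by TMM. DESeq2 1.42.0 was an alternative, as were RLE factors, other filters, fits on only the groups compared and a block for the replicate number. Each library was also thinned to 16127907 counts, and each library of cells kept on the same surface was left out in turn. Libraries of the switched cultures were not left out. The edgeR test was tested on simulated data. Large changes were planted there only in genes of higher counts, so small changes and genes of few counts were not covered.

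The members, lists and tests were chosen with earlier results of these data known. The rule for named genes took the 12 genes of largest log2 fold change per direction among genes apart with a mean of at least 1 CPM in the higher group, genes the study names, and members of gene lists. The last 2 parts and a condition on gene symbols could not be applied, because no table used here pairs the identifiers with symbols, and the first 2 identifiers per direction are given. For the same reason no promoter or protein sequences are shown. The definition of genes apart, and the share with the same sign at 5 weeks, were added after the values were seen, as were the choice on the 6 libraries alone and the shares and DESeq2 calls without single libraries at 3 weeks.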

Additional observations from a re-analysis of the deposited data

How the results depend on the processing

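The number of genes called between 3w2 and 3w100 was 0 in edgeR with RLE factors, without a filter, with a filter on a mean of 10 counts, with thinned counts and on only the 6 libraries. It was 11 with DESeq2 on 20 libraries, 68 with DESeq2 on the 6 libraries and 863 at an unadjusted p below 0.05. Leaving out 1 library gave 0 to 3, with 3 without 3w2 replicate 3. With the replicate number as a block it was 1 in edgeR on 20 libraries, 0 in edgeR on the 6 and 172 in DESeq2 on the 6. Same-numbered libraries of 3w2 and 3w100 deviated from their group means with r = 0.439, 0.0588 and 0.498 for replicates 1, 2 and 3. Between libraries of different numbers r was -0.543 to 0.234. Those of replicates 1 and 3 correlated best with their own number, and neither library of replicate 2 did. The main model has no term for the number because the study does not state a paired model. If the numbers mark the same rat, the main model leaves that pairing out. The change of the difference from 1 to 3 weeks had 0 calls in every fit but 1 (1 call, DESeq2 with the replicate block on only these groups). That from 3 to 5 weeks had 0 calls apart from 2 with DESeq2 on only these groups and 10 with the replicate block added, and leaving out 1 library gave 0 calls in both.

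The 582 genes apart became 913 with edgeR on the 6 libraries, 912 with the replicate block added, and 327 to 1368 without 1 library. The share of genes with the same sign at 5 weeks, 93.3%, became 96.2% with DESeq2 on the 6 libraries, 97.7% with the replicate block added and 87.8% to 94.4% without 1 library. The cause of these shifts was not tested, other than that DESeq2 and fits on 6 libraries estimate the spread differently. The log2 fold changes of the 4 identifiers kept their sign in all alternatives. ENSRNOG00000013907 passed in 1 DESeq2 fit, with the replicate block on the 3-week groups alone (adjusted p = 0.0494), ENSRNOG00000017640 in 2 and ENSRNOG00000067388 in 3. ENSRNOG00000047393 could not be fitted in edgeR on the 6 libraries, where the filter removed it. TMM and RLE gave a median log2 fold change of -0.005 and -0.004. Comparisons of gene lists under other settings were not run, since no list could be matched to identifiers.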
